A study of Mus musculus with 16 samples.

Results

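The genes described here are 39 genes of the blood vessel lining, read in kidney cortex of mice that stayed sedentary or ran on a treadmill. They were chosen by name, as genes of glomerular, capillary and arterial endothelium, and were found in the count table through the Ensembl identifiers that GENCODE M21 pairs with their symbols. All 39 were found among the 55414 genes of the table, and all 39 were among the 16126 genes that passed the filter on low counts. The study took RNA from kidney cortex of male C57BL/6J mice of wild-type genotype, frozen at death, and sequenced its polyadenylated fraction. There were 4 groups of 4 libraries: sedentary mice, and mice made to run on a treadmill, 40 minutes at 70% of capacity, labelled 24 h, 1 wk and 2 wk for 1 day, 1 week and 2 weeks of running. Sedentary and exercised mice share strain, sex and tissue. The sources used here do not give age, the number of runs a week or how long after the last run the mice were killed, nor do they say whether 24 h is the span of the running or the wait after a run. The sample titles carry a letter, F in every exercised library and G in every sedentary one, whose meaning is not given, so its effect and that of exercise cannot be told apart. The labels do not say that each library came from a separate mouse, so p-values here reflect only how much the libraries of a group spread, which may be technical.

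Endothelial cells line every vessel of the kidney and differ by bed. Those of the glomerulus are perforated by fenestrae and depend on vascular endothelial growth factor (VEGF) from podocytes, those of the peritubular capillaries take up what the tubules reabsorb, and those of arteries express connexins and Notch ligands. Their identity is held by transcription factors of the ETS and SOX families, which bind the regulatory regions of genes for receptors and junction proteins. In bulk cortex RNA, fewer endothelial cells and less endothelial RNA per cell cannot be told apart.

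Library totals ran from 39766260 to 66852397 counts, and the members' raw counts ran from 40 for Sox7 to 24536 for Igfbp5. Levels are given as CPM, counts per 1000000 counts of the library, scaled by the trimmed mean of M-values (TMM). The tissue label was checked against other markers: the 10 proximal tubule genes of a marker list summed to 52700 to 68700 CPM in every group, and 14 podocyte genes to 438 to 619 CPM. Libraries 1 and 2 of the 2 wk group were low in part of a list of 9 genes named for the renal medulla. Their means were -1.02 and -0.52 (log2, against the sedentary mean). Umod of this list had 2770, 2530, 2850 and 2350 CPM in sedentary cortex, and how well the list gauges medulla was not tested. The list holds Slc14a2, a urea transporter of the medullary tubule. Slc14a2 had 0.533 and 9.22 CPM there, 58.2 and 16.8 CPM in libraries 3 and 4, and 38.6 to 49 CPM in sedentary libraries. Without Slc14a2 the means were -0.37 and -0.31, and library 3 of the 24 h group had -0.41. Of the 9 genes, 5 and 7 were below every sedentary library in 2 wk libraries 1 and 2, and 6, 5, 7 and 1 were in the 24 h libraries. The counts of members that were lower or higher at 2 wk are also given without libraries 1 and 2.

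Most of the endothelial genes were lower after 1 wk of running than in sedentary cortex, and fewer of them were lower at 2 wk. At 1 wk, 36 of 39 members had a negative log2 fold change, with a median of -0.345, or -21.3%, where the median over all genes tested was 0.004. At 24 h the median was -0.026, with 23 members negative, and at 2 wk it was -0.197, with 34 negative. These 3 comparisons share the sedentary libraries. No member passed an adjusted p of 0.05 in edgeR's quasi-likelihood test in any comparison, where 0.0124% of all genes did so between 2 wk and 24 h and over all 4 groups and 0 did elsewhere, so the differences below are described by unadjusted p.

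By that measure, 25 members were lower at 1 wk than in sedentary libraries with an unadjusted p under 0.05 and 0 were higher, where 3.72% of all tested genes were lower and 2.33% were higher. At 24 h, 1 member was lower (background 4.43%) and 1 was higher (background 4.49%). At 2 wk, 9 members were lower (background 3.24%) and 0 were higher (background 4.02%). The 4 libraries of a group lay wholly below the 4 sedentary ones for 2 members at 24 h, where 3.66% of all genes did so, for 14 members at 1 wk (2.51%) and for 6 at 2 wk (2.61%). They lay wholly above for 1 member at 24 h (background 3.55%), for 0 at 1 wk (1.71%) and for 0 at 2 wk (2.29%). Members come from the same cells of the same libraries, so the counts do not add up independent observations.

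Leaving out 1 library at a time left between 13 and 24 members lower at 1 wk. The fewest remained without library 2 (13) or library 4 (14) of the 1 wk group, and without sedentary library 1 (14) or 4 (15), while the median stayed between -0.386 and -0.302. Over all genes, edgeR called 0 at an adjusted p of 0.05 between 1 wk and sedentary libraries and 975 at an unadjusted p under 0.05. DESeq2 called 15 genes there (0.0968% of those it adjusted), among them 1 member, Ets1, with an adjusted p of 0.0407, and voom with quality weights called 6 genes and no member.

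**Figure D1:**
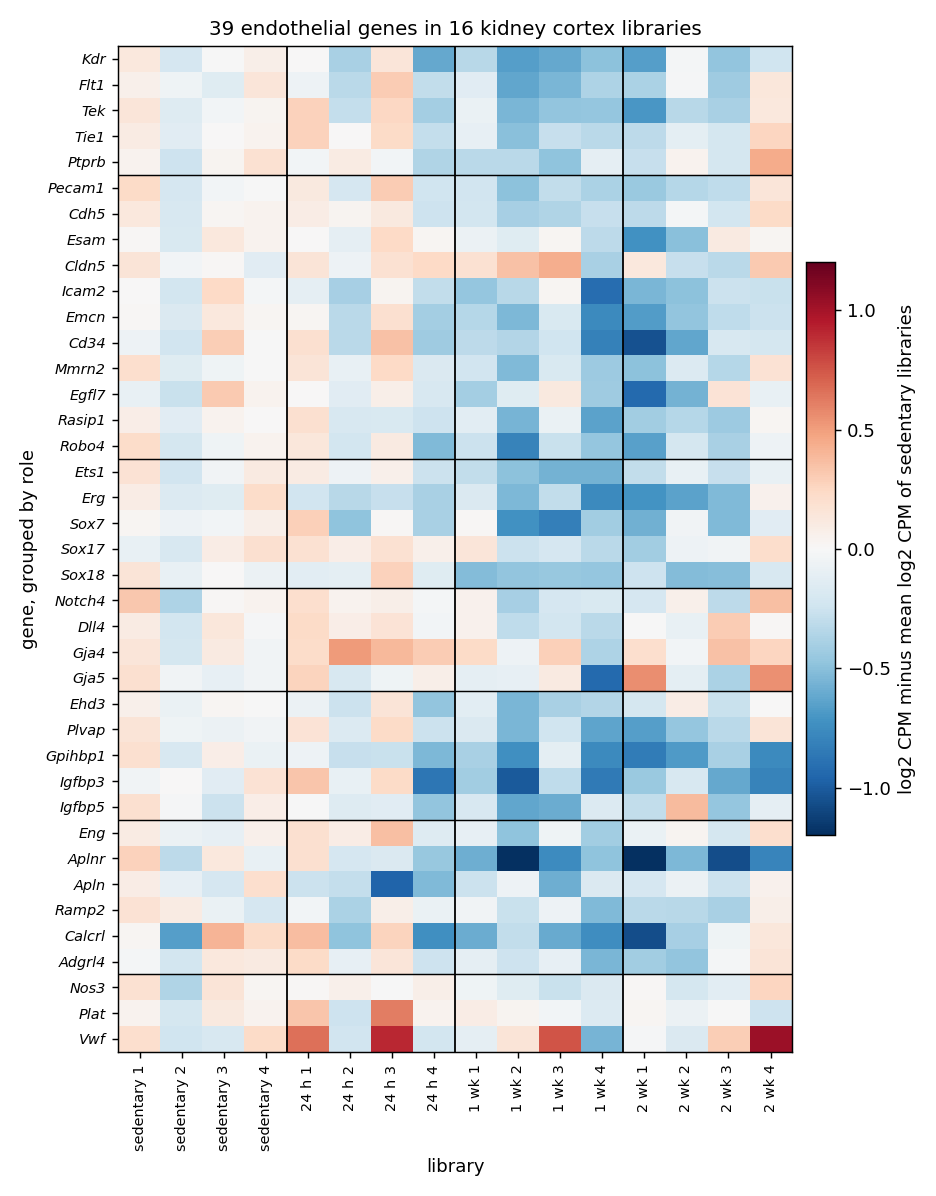
Each row is a gene, grouped by role, and each column a library; colour is log2 CPM minus the mean log2 CPM of the 4 sedentary libraries, with the scale ending at 1.2 in either direction. The 1 wk columns are blue in most rows, with 32, 36, 32 and 39 of 39 genes below the sedentary mean, but sedentary library 2 had 37, 24 h libraries 10, 30, 9 and 32, and 2 wk libraries 34, 34, 34 and 14.

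The 5 receptors and receptor regulators of VEGF and the angiopoietins were all lower at 1 wk, with log2 fold changes from -0.52 to -0.29, and all 5 had an unadjusted p under 0.05. Kdr (ENSMUSG00000062960, chromosome 5, 75932827 to 75978458, minus strand) encodes VEGF receptor 2, the main signalling receptor for VEGF on endothelium. It stood at 41, 32.6, 37.4 and 39.4 CPM in the sedentary libraries and at 37.6, 28.6, 41.4 and 24.5 CPM at 24 h. At 1 wk it had 29.8, 23.7, 24.5 and 26.6 CPM, and at 2 wk 23.7, 36.9, 26.9 and 31.7 CPM. Every 1 wk library was below every sedentary one, whereas the 24 h and 2 wk libraries overlapped them. The log2 fold change at 1 wk was -0.52 with a standard error (SE) of 0.15, a difference of -30.5% (unadjusted p = 0.00272, adjusted p = 0.499 in edgeR).

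Flt1, VEGF receptor 1, which binds VEGF tightly and limits how much reaches Kdr, had 39.4, 36.4, 34.2 and 41.8 CPM in sedentary libraries and 34.4, 24.6, 25.8 and 29.3 CPM at 1 wk. It had 36.3, 30.3, 46.8 and 30.8 CPM at 24 h and 29, 37.5, 28.1 and 41.6 CPM at 2 wk. Library 1 of the 1 wk group reached the lower edge of the sedentary range and the other 3 were below it. The log2 fold change at 1 wk was -0.41 with an SE of 0.15 (unadjusted p = 0.0125, adjusted p = 0.671 in edgeR). Tek, the angiopoietin receptor Tie2, had -0.38 (unadjusted p = 0.0372), its partner receptor Tie1 had -0.29 (unadjusted p = 0.0388), and Ptprb, the phosphatase VE-PTP that holds Tek inactive, had -0.31 (unadjusted p = 0.0424) on the same scale. At 2 wk only Kdr of the 5 had an unadjusted p under 0.05, with a log2 fold change of -0.33 and a p of 0.0404 (adjusted p = 0.671 in edgeR).

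Of 11 junction, surface and matrix genes, 8 were lower at 1 wk with an unadjusted p under 0.05, and the median log2 fold change was -0.35. Pecam1, the adhesion molecule CD31 at endothelial contacts, had 48.5, 36, 40.5 and 41.3 CPM in sedentary libraries and 35.3, 29.4, 33.7 and 31.8 CPM at 1 wk. The 24 h libraries had 44.8, 35.9, 51.1 and 35.1 CPM and the 2 wk libraries 30.3, 32.6, 33.5 and 45.8 CPM. All 1 wk libraries were below the sedentary ones, and at 2 wk library 4 alone was inside the sedentary range. Its log2 fold change at 1 wk was -0.35 with an SE of 0.14 (unadjusted p = 0.018, adjusted p = 0.713 in edgeR).

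Cdh5, the VE-cadherin of adherens junctions, read 21.5, 17.3, 20.1 and 20.3 CPM in sedentary libraries and 16.9, 15, 15.4 and 16.3 CPM at 1 wk. At 24 h it read 21, 20.2, 21.4 and 16.6 CPM, and at 2 wk 15.9, 19.4, 16.9 and 23.2 CPM. The 1 wk libraries again lay below all sedentary ones, with a log2 fold change of -0.32 and an SE of 0.12 (unadjusted p = 0.0127, adjusted p = 0.671 in edgeR). Robo4, a surface receptor that steadies the vessel barrier, read 16.7, 12.4, 13.8 and 14.7 CPM in sedentary libraries and 12, 8.22, 11.9 and 10.4 CPM at 1 wk. Its 24 h values were 15.7, 12.3, 15.4 and 9.89 CPM and its 2 wk values 9.09, 12.4, 10.9 and 13.7 CPM. At 1 wk no library reached the sedentary range, and the log2 fold change was -0.44 with an SE of 0.16 (unadjusted p = 0.0125, adjusted p = 0.671 in edgeR).

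Emcn (ENSMUSG00000054690, chromosome 3, 137341067 to 137432185, plus strand) encodes endomucin, a sialomucin of capillary and venous endothelium. It had 54.4, 47.8, 58.9 and 54.8 CPM in sedentary libraries and 54.7, 42.9, 61.5 and 40.6 CPM at 24 h. It then had 42.4, 37, 47.3 and 31.6 CPM at 1 wk and 33.8, 38.7, 43.7 and 45 CPM at 2 wk. Both the 1 wk and the 2 wk libraries were below every sedentary library, while the 24 h libraries spread across and beyond the sedentary range. The log2 fold change was -0.45 with an SE of 0.14 at 1 wk (unadjusted p = 0.00445, adjusted p = 0.548 in edgeR) and -0.42 at 2 wk (unadjusted p = 0.00675, adjusted p = 0.432).

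Of the other genes of this role, Cd34, a sialomucin that serves as a vessel marker, had -0.43 at 1 wk (unadjusted p = 0.0393) and -0.49 at 2 wk (unadjusted p = 0.0201). Icam2, an adhesion molecule for leukocytes, had -0.40 (unadjusted p = 0.0238) and -0.39 (unadjusted p = 0.0236). Mmrn2, a matrix protein of vessels, had -0.35 at 1 wk (unadjusted p = 0.0214), and Rasip1, which links Ras-family GTPases to the cytoskeleton in vessel formation, had -0.34 (unadjusted p = 0.0295). Cldn5, the claudin of endothelial tight junctions, had a positive value at 1 wk. It had 10.3, 9.01, 9.32 and 8.4 CPM in sedentary libraries, 10.3, 8.87, 10.5 and 10.9 CPM at 24 h, and 10.1, 7.6, 7.39 and 11.5 CPM at 2 wk. At 1 wk it had 10.5, 11.8, 12.5 and 7.06 CPM, so 3 libraries were above the sedentary range and 1 below it, with a log2 fold change of 0.17 and a 95% interval from -0.14 to 0.49. Esam, a junction adhesion molecule, at -0.12 and Egfl7, a secreted endothelial factor, at -0.21 did not reach an unadjusted p of 0.05.

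Since most members were lower together at 1 wk, their promoters were read for the letters that ETS and SOX factors favour. RefSeq windows on GRCm38.p6, from 250 bases before to 50 bases after the start site, were matched for 22 of the 39 members by symbol, and the window nearest the GENCODE start was read for each. The ETS motif CAGGAAG, on either strand, was in 9 of the 22 (40.9%) and in 13.3% of all 32817 windows. The other ETS form CCGGAAG was in 0 of 22 and in 8.9% of all windows, and the SOX motif AACAAT in 3 of 22 (13.6%) and in 10.7%. CAGGAAG was in 6 of the 14 matched members that were lower at 1 wk with an unadjusted p under 0.05 and in 3 of the other 8. Both ETS forms hold the core GGAA and cannot match at the same place on a strand. The upstream 250 bases of 3 members, chosen after their values were seen, are printed because each was lower at 1 wk, holds at least 1 motif and has its RefSeq start within 20 bases of the GENCODE start. All 3 lie on the plus strand, and capitals mark the motif or its reverse complement: CTTCCTG for CAGGAAG, and ATTGTT for AACAAT. The first is Emcn, chr3:137340828-137341077, the second Cd34, chr1:194938571-194938820, and the last Tek, chr4:94739039-94739288.
Emcn: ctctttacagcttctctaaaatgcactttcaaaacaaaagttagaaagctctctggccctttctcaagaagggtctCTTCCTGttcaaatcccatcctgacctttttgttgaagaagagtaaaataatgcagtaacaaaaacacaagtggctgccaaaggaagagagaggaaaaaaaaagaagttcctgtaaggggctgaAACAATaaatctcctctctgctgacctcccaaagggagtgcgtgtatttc
Cd34: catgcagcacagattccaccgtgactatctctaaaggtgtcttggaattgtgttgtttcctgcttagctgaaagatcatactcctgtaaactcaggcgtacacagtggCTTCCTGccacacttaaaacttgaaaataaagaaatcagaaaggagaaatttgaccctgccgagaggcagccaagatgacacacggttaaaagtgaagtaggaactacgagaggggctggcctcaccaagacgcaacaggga
Tek: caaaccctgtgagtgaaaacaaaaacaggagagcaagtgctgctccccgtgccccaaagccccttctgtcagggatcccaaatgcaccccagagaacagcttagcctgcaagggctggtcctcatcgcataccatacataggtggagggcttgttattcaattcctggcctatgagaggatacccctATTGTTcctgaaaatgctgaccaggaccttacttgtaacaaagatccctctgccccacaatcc
In Emcn the ETS match starts 174 bases before the RefSeq start site and the SOX match 50 bases before it. The ETS match of Cd34 starts 142 bases before its start site, and the SOX match of Tek 63 bases before. A match describes letters and is not a bound site.

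Among 5 transcription factors, 4 were lower at 1 wk with an unadjusted p under 0.05, and the median log2 fold change was -0.45. Ets1 (ENSMUSG00000032035, chromosome 9, 32636221 to 32757820, plus strand), an ETS factor of endothelium and lymphocytes, had 16.8, 12.7, 14.5 and 16.1 CPM in sedentary libraries and 16, 14.3, 15.6 and 12.5 CPM at 24 h. It had 12.2, 10.6, 10.1 and 10.1 CPM at 1 wk and 12.2, 14, 12.3 and 14 CPM at 2 wk. The 1 wk libraries lay below every sedentary and every 24 h library, and, before rounding, below every 2 wk library. Its log2 fold change at 1 wk was -0.48 with an SE of 0.11, the smallest p among the members in that comparison (unadjusted p = 0.000315, adjusted p = 0.378 in edgeR).

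Sox18 (ENSMUSG00000046470, chromosome 2, 181669836 to 181671640, minus strand), a SOX factor of developing vessels, had 13.5, 11.4, 12.2 and 11.6 CPM in sedentary libraries and 11.1, 11.2, 14.7 and 11 CPM at 24 h. The 1 wk libraries had 8.47, 8.76, 8.88 and 8.81 CPM and the 2 wk libraries 10.2, 8.45, 8.54 and 10.6 CPM. At 1 wk the 4 values were close together and below all 8 sedentary and 24 h values, and at 2 wk they were below them too. The difference as a log2 fold change was -0.48 with an SE of 0.11 at 1 wk (unadjusted p = 0.000492, adjusted p = 0.396 in edgeR) and -0.36 at 2 wk (unadjusted p = 0.00479, adjusted p = 0.412).

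Erg, the ETS factor that maintains endothelial identity, read 8.99, 7.58, 7.63 and 9.88 CPM in sedentary libraries and 7.23, 6.72, 6.97 and 6.45 CPM at 24 h. It read 7.52, 5.83, 6.92 and 5 CPM at 1 wk and 5.16, 5.42, 5.85 and 8.77 CPM at 2 wk. Its 24 h and 1 wk libraries were below every sedentary one, and at 2 wk library 4 was inside the sedentary range. On the log2 scale the fold change was -0.43 with an SE of 0.16 at 1 wk (unadjusted p = 0.0142, adjusted p = 0.673 in edgeR) and -0.44 at 2 wk (unadjusted p = 0.0135, adjusted p = 0.559). Sox7, another SOX factor of vessels, had -0.45 at 1 wk (unadjusted p = 0.0483), and Sox17, the SOX factor of arteries, had -0.16 (unadjusted p = 0.284).

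All 5 genes of capillary and glomerular specialisation were lower at 1 wk with an unadjusted p under 0.05, with log2 fold changes from -0.62 to -0.35. Ehd3, a membrane-trafficking protein found in glomerular endothelium, had 27.3, 24.8, 26.6 and 26.1 CPM in sedentary libraries and 24, 17.9, 20 and 20.5 CPM at 1 wk. At 24 h it had 25, 21.9, 29.2 and 18.9 CPM and at 2 wk 22.6, 27.8, 21.7 and 26.3 CPM. It was below the sedentary range in all 1 wk libraries and ran from below to above it at 24 h and 2 wk, with a log2 fold change of -0.35 and an SE of 0.12 at 1 wk (unadjusted p = 0.0111, adjusted p = 0.669 in edgeR).

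Plvap, which forms the diaphragms of fenestrae in peritubular capillaries, had 194, 168, 166 and 169 CPM in sedentary libraries and 154, 119, 147 and 112 CPM at 1 wk. It had 195, 155, 204 and 145 CPM at 24 h and 110, 126, 139 and 193 CPM at 2 wk. The 1 wk libraries lay below every sedentary one, and at 2 wk 3 of 4 did. Its fold change on the log2 scale at 1 wk was -0.39 with an SE of 0.15 (unadjusted p = 0.0195, adjusted p = 0.729 in edgeR).

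Gpihbp1 (ENSMUSG00000022579, chromosome 15, 75596628 to 75599481, plus strand), which carries lipoprotein lipase to the capillary lumen, had 12, 9.19, 11.1 and 9.96 CPM in sedentary libraries and 10.1, 8.7, 8.75 and 7.25 CPM at 24 h. It had 8.03, 6.3, 9.67 and 6.19 CPM at 1 wk and 5.89, 6.57, 8.01 and 6.17 CPM at 2 wk. The 2 wk libraries were below every sedentary one, and at 1 wk library 3 overlapped the sedentary range. Its log2 fold change was -0.28 at 24 h (unadjusted p = 0.0742), -0.49 with an SE of 0.15 at 1 wk (unadjusted p = 0.00408, adjusted p = 0.54 in edgeR) and -0.67 with an SE of 0.15 at 2 wk (unadjusted p = 0.000281, adjusted p = 0.239). DESeq2 gave Gpihbp1 an adjusted p of 0.0168 at 2 wk, where 0.239% of the genes it adjusted passed.

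Igfbp3, a binding protein for insulin-like growth factors, had 248, 256, 233 and 288 CPM in sedentary libraries and 322, 240, 299 and 140 CPM at 24 h. It had 191, 127, 207 and 142 CPM at 1 wk and 188, 224, 167 and 147 CPM at 2 wk. All 8 libraries of the longer durations lay below the sedentary range, while at 24 h library 4 was far below it and libraries 1 and 3 above. The difference as a log2 fold change was -0.62 with an SE of 0.20 at 1 wk (unadjusted p = 0.00706, adjusted p = 0.618 in edgeR) and -0.50 at 2 wk (unadjusted p = 0.0251, adjusted p = 0.623). Igfbp5, another such binding protein, had -0.39 at 1 wk (unadjusted p = 0.0269), and the range of its sedentary libraries was 234 to 319 CPM.

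**Figure D2:**
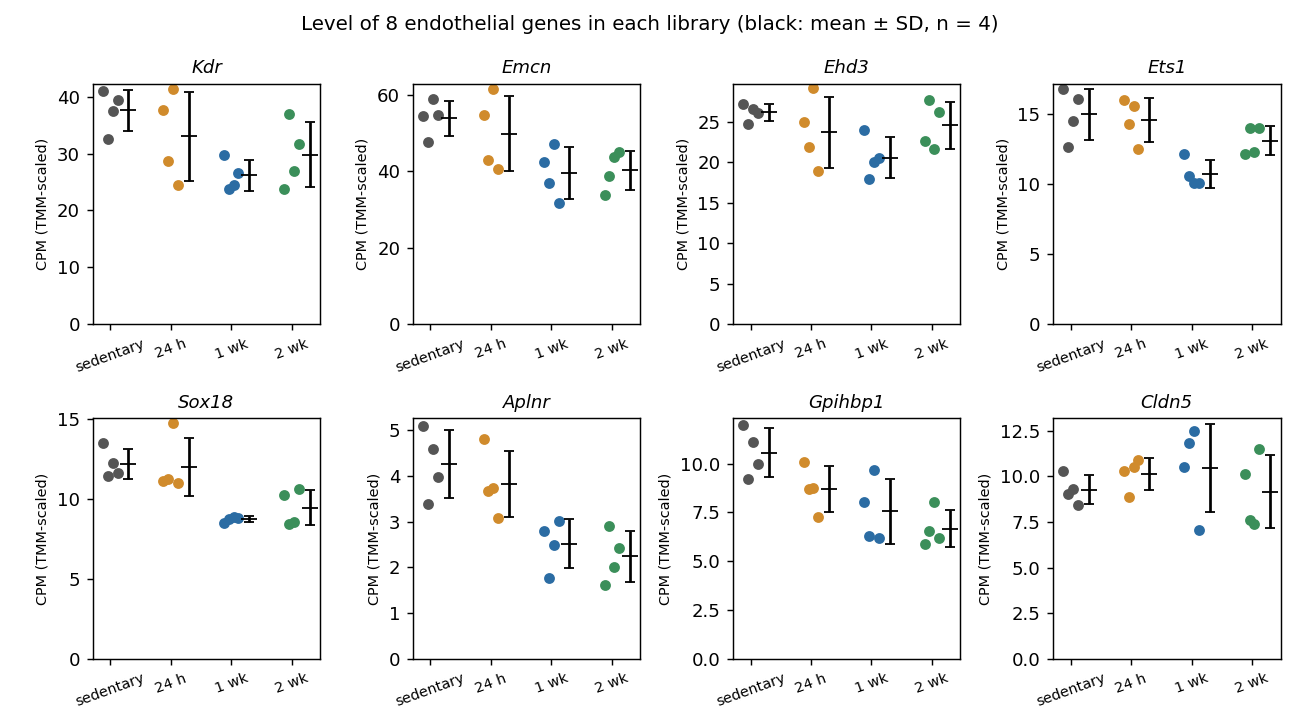
Points are the CPM of each library for 8 of the genes, by group on the horizontal axis, with the mean and SD over 4 libraries beside them in black. Sox18 at 1 wk sits at 8.47 to 8.88 CPM, under its sedentary libraries at 11.4 to 13.5 CPM, while Cldn5 at 1 wk spreads from 7.06 to 12.5 CPM.

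Of 6 peptide, TGF-beta and adhesion receptors and their partners, 3 were lower at 1 wk with an unadjusted p under 0.05. Aplnr (ENSMUSG00000044338, chromosome 2, 85136225 to 85139923, plus strand), the receptor for apelin, had the lowest log2 fold change of the 39 members at 1 wk and at 2 wk. It had 5.09, 3.38, 4.6 and 3.97 CPM in sedentary libraries and 4.82, 3.67, 3.74 and 3.08 CPM at 24 h. It had 2.8, 1.77, 2.5 and 3.02 CPM at 1 wk and 1.62, 2.9, 2.01 and 2.43 CPM at 2 wk. The 1 wk and 2 wk libraries were below every sedentary and every 24 h library. On the log2 scale the fold change was -0.15 at 24 h, -0.76 with an SE of 0.20 at 1 wk (unadjusted p = 0.00134, adjusted p = 0.479 in edgeR) and -0.92 with an SE of 0.20 at 2 wk (unadjusted p = 0.000224, adjusted p = 0.232). DESeq2 gave Aplnr an adjusted p of 0.00863 at 2 wk.

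Apln, the gene for apelin itself, was lower at 24 h, with 5.85, 5.75, 3.58 and 4.84 CPM against 7.43, 6.54, 6.09 and 8.06 CPM in sedentary libraries. Its libraries did not overlap, and the log2 fold change was -0.49 with an SE of 0.15 (unadjusted p = 0.00483, adjusted p = 0.327 in edgeR). Apln had 5.86, 6.7, 4.67 and 6.19 CPM at 1 wk, with a log2 fold change of -0.26 (unadjusted p = 0.102), and 6.06, 6.65, 5.83 and 7.25 CPM at 2 wk. By group mean, Apln was lowest at 24 h and Aplnr at 2 wk. Apln at 1 wk overlapped 24 h, at a log2 fold change of 0.23 (unadjusted p = 0.157 in edgeR). Against 24 h, Apln at 2 wk had 0.37 (unadjusted p = 0.028). Aplnr at 2 wk overlapped 1 wk, at -0.16 (unadjusted p = 0.447). Whether the 2 genes differed in timing was not tested. Calcrl, the receptor for adrenomedullin and related peptides, had -0.60 at 1 wk (unadjusted p = 0.039), and Eng, a TGF-beta co-receptor, had -0.25 (unadjusted p = 0.0499). Ramp2, the partner that makes Calcrl an adrenomedullin receptor, had -0.22 and Adgrl4, an adhesion receptor of vessels, had -0.25, neither with an unadjusted p under 0.05.

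Of the 4 arterial and Notch genes, 0 had an unadjusted p under 0.05 at 1 wk against sedentary libraries, with a median log2 fold change of -0.20. Whether they differed from the other members was not tested. Gja5, connexin 40 of arterial endothelium and renin cells, had 3.59, 3.05, 2.93 and 3.05 CPM in sedentary libraries and 3.79, 2.75, 3.04 and 3.31 CPM at 24 h. It had 2.91, 2.93, 3.39 and 1.65 CPM at 1 wk and 4.63, 2.9, 2.41 and 4.61 CPM at 2 wk, and the groups overlapped throughout. Its fold change on the log2 scale at 1 wk was -0.22 with a 95% interval from -0.65 to 0.21. Gja4, connexin 37, had 4.86, 5.95, 5.47 and 5.14 CPM at 24 h against 4.6, 3.6, 4.49 and 4.05 CPM in sedentary libraries, without overlap, at a log2 fold change of 0.35 with an SE of 0.15 (unadjusted p = 0.0259, adjusted p = 0.495 in edgeR). At 1 wk Gja4 had 0.03, and Dll4, a Notch ligand of arteries and sprouting tip cells, and Notch4, an endothelial Notch receptor, had -0.20 each.

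Genes for clotting and vessel tone also had no member with an unadjusted p under 0.05 against sedentary libraries. Vwf, von Willebrand factor of larger vessels, had 1.6, 1.18, 1.22 and 1.64 CPM in sedentary libraries and 2.2, 1.19, 2.61 and 1.2 CPM at 24 h. It had 1.29, 1.55, 2.35 and 0.947 CPM at 1 wk and 1.38, 1.24, 1.71 and 2.84 CPM at 2 wk. Its groups overlapped in every comparison, and its log2 fold change at 1 wk was 0.10 with a 95% interval from -0.51 to 0.72, wide enough to hold the median difference of the members. Nos3, which makes nitric oxide in endothelium, had -0.17 and Plat, the tissue plasminogen activator, had -0.02 at 1 wk.

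**Figure D3:**
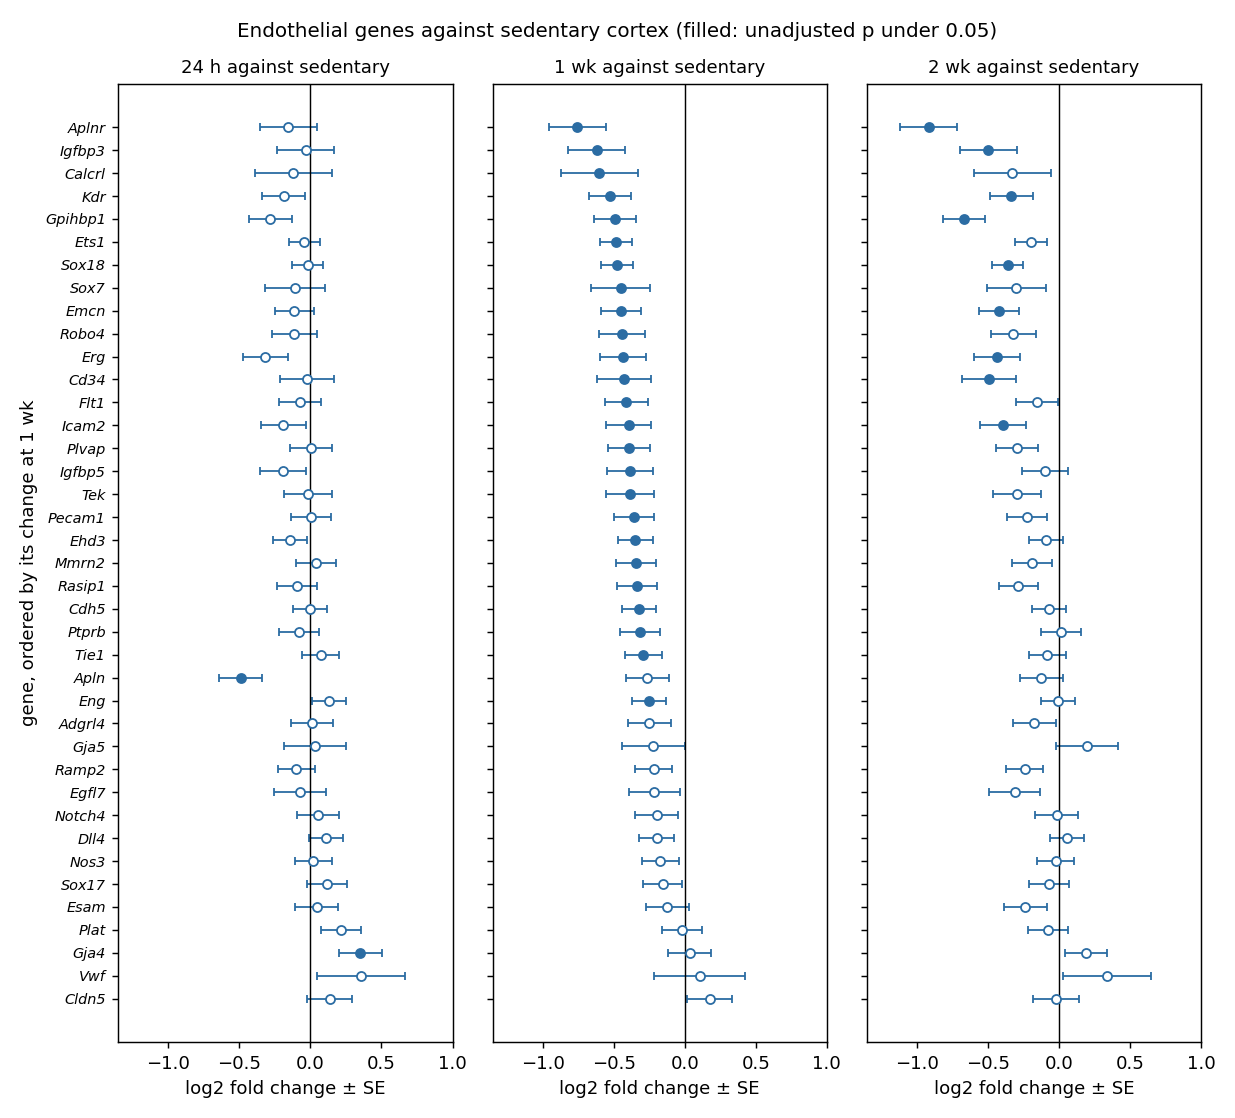
Log2 fold change with its SE for the 39 genes against sedentary libraries at 24 h, 1 wk and 2 wk, ordered by the value at 1 wk, with filled points for an unadjusted p under 0.05. The 24 h values center on a median of -0.026, the 1 wk values on -0.345 and the 2 wk values on -0.197, with 2, 25 and 9 filled points.

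Between exercised groups, 16 members were lower at 1 wk than at 24 h with an unadjusted p under 0.05 (background 4.72%) and 0 were higher (background 2.43%), and the members had a median of -0.305. The smallest p values were those of Sox18 at -0.46 (unadjusted p = 0.000731, adjusted p = 0.274 in edgeR) and Ets1 at -0.44 (unadjusted p = 0.000759, adjusted p = 0.274), and DESeq2 gave both an adjusted p of 0.0441, where 0.389% of the genes it adjusted passed. Aplnr had -0.60 (unadjusted p = 0.00776), Igfbp3 -0.59 (unadjusted p = 0.00997), Plvap -0.40 (unadjusted p = 0.0181), Eng -0.38 (unadjusted p = 0.00505) and Mmrn2 -0.38 (unadjusted p = 0.0122). Of the receptors, Tek had -0.37, Tie1 -0.36, Kdr -0.34 and Flt1 -0.34 (unadjusted p = 0.0443, 0.0126, 0.0392 and 0.035), and of the junction and surface genes Pecam1 had -0.36, Emcn -0.34 and Cdh5 -0.32 (unadjusted p = 0.0171, 0.0259 and 0.0134). Dll4 at -0.30 (unadjusted p = 0.021) and Gja4 at -0.32 (unadjusted p = 0.0424) completed the 16, so 2 of 4 arterial genes were lower at 1 wk than at 24 h. The libraries lay wholly below those of 24 h for 5 members (background 1.85%), Aplnr, Ets1, Mmrn2, Nos3 and Sox18, and wholly above for 0 (background 1.07%). Without library 2 or 4 of the 1 wk group the count of lower members was 8 or 10, and without library 1 or 3 of the 24 h group it was 9. Genes of other cell types were lower in the same comparison: 7 of 11 macrophage genes, with a median of -0.52, and 5 of 10 fibroblast genes, with a median of -0.64. Library 3 at 24 h was high in the fibroblast genes (mean log2 difference from sedentary 0.83) and in the macrophage genes (0.45), and library 1 in fibroblast genes (0.47), and the part of this in the member differences was not tested.

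From 1 wk to 2 wk, 4 members were higher with an unadjusted p under 0.05 (background 2.86%) and 0 were lower (background 1.71%): Ets1 at 0.29, Ptprb at 0.33, Cdh5 at 0.25 and Dll4 at 0.25 (unadjusted p = 0.0175, 0.0336, 0.0463 and 0.0491, all with adjusted p = 0.868 in edgeR). The median over members was 0.128, and 30 of 39 were positive; it ran from 0.029 to 0.197 with 1 library left out. Without libraries 1 and 2 of the 2 wk group it was 0.235, with Ptprb, Dll4, Cdh5 and Tie1 the 4 members higher (unadjusted p = 0.0132, 0.0255, 0.0226 and 0.0461, all with adjusted p = 0.998 in edgeR), while Ets1 had 0.29 (unadjusted p = 0.0504). The 2 wk libraries lay wholly above the 1 wk ones for Ets1 alone (background 0.93%) and wholly below for 0 members (background 0.657%). With 1 library left out, 1 to 8 members were higher at 2 wk than at 1 wk with an unadjusted p under 0.05. The number was 8 without library 3 of the 2 wk group, and 2 without its library 2 or without library 4 of the 1 wk group. It was 1 without library 4 of the 2 wk group or library 2 of the 1 wk group. Against 24 h, 7 members were lower at 2 wk (background 4.32%), led by Aplnr at -0.76 (unadjusted p = 0.00133, adjusted p = 0.329 in edgeR), and 1 was higher (background 5.29%), Apln at 0.37 (unadjusted p = 0.028). The others lower were Cd34 at -0.47, Igfbp3 at -0.46, Gpihbp1 at -0.39, Sox18 at -0.34, Emcn at -0.31 and Plat at -0.29 (unadjusted p = 0.0267, 0.0347, 0.019, 0.00706, 0.038 and 0.0435). Without 2 wk libraries 1 and 2, 3 were lower and 0 higher, with a median of -0.072. Aplnr and Sox18 did not overlap between 24 h and 2 wk (2 members lower, background 1.56%, and 0 higher, background 1.7%). The number lower at 2 wk than at 24 h with an unadjusted p under 0.05 rose to 14 without library 4 of the 2 wk group. Without library 4 of the 24 h group it rose to 11. It was 3 or 4 without library 1 or 2 of the 2 wk group, 3 without library 3 of the 24 h group and 2 without its library 1. In edgeR's test over all groups together, 15 members had an unadjusted p under 0.05 (background 8.73%), led by Aplnr (unadjusted p = 0.000396), Sox18 (unadjusted p = 0.000657) and Ets1 (unadjusted p = 0.00147), and 7 to 9 did without sedentary library 1 or 4, library 1 of 24 h or library 2 of 1 wk. Without 2 wk libraries 1 and 2 together 12 did, and DESeq2 put 4 members past an adjusted p of 0.05 over all groups, Aplnr, Sox18, Ets1 and Gpihbp1 (adjusted p = 0.00223, 0.00933, 0.025 and 0.0285), where 1.07% of the genes it adjusted passed. By group mean, 27 of 39 members were lowest at 1 wk, 9 at 2 wk, 2 in sedentary libraries and 1 at 24 h, where 21.7% of all genes were lowest at 1 wk and 25% at 2 wk.

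At 2 wk the result rested on some libraries more than others. The mean log2 difference of the 39 members from the sedentary mean was -0.41, -0.23, -0.26 and 0.03 in the 4 libraries of 2 wk, against -0.18, -0.41, -0.23 and -0.47 at 1 wk and 0.10, -0.17, 0.02 and 0.04 in sedentary libraries, so sedentary library 2 came close to library 1 of 1 wk. Library 4 of the 2 wk group was thus level with sedentary cortex, and without it 16 members were lower at 2 wk in place of 9. Without library 1, 5 were lower. Without libraries 1 and 2 together, the libraries lowest in Slc14a2, edgeR left 4 lower members: Aplnr at -0.94 (unadjusted p = 0.000973), Gpihbp1 at -0.57 (unadjusted p = 0.00814), Igfbp3 at -0.70 (unadjusted p = 0.0147) and Sox18 at -0.34 (unadjusted p = 0.0283). In that edgeR fit Kdr was at -0.36 (unadjusted p = 0.0529), Emcn at -0.28, Icam2 at -0.27, Erg at -0.22 and Cd34 at -0.21. The median over members was then -0.10. That fit had 2 libraries at 2 wk in place of 4, so its count of lower members is not on a par with the count of 9. Some members, picked after their values were seen, were also lowest of the 2 wk group in the same 2 libraries. They were Esam (15.3 and 17.8 CPM, against 27.2 and 25.7 CPM in the other 2), Egfl7 (18 and 23.3 CPM, against 38.7 and 32.3 CPM) and Cd34 (10.3 and 13.8 CPM, against 18.6 and 18.3 CPM). Other members went the other way. Igfbp3 was highest in those 2 libraries (188 and 224 CPM, against 167 and 147 CPM). Library 2 had the group's highest Kdr (36.9 CPM), Ehd3 (27.8 CPM), Igfbp5 (364 CPM) and Aplnr (2.9 CPM). The members that went each way were not counted, and the part of medulla in the result was not tested.

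Other endothelial genes, 29 in a list without members, showed the same direction. At 1 wk 13 were lower with an unadjusted p under 0.05 (background 3.72%) and 0 were higher (background 2.33%). Of the 29, 27 were negative, where 48.9% of all genes were, and the median log2 fold change was -0.34. The 4 of smallest p were Arhgef15, a guanine nucleotide exchange factor of vessels, at -0.44, the repressor Bcl6b at -0.55, the surface receptor Cd93 at -0.45 and the endothelin receptor Ednrb at -0.47. All 4 had 1 wk libraries below every sedentary one, where 2.51% of all genes did. At 2 wk, 4 of the 29 were lower (background 3.24%) and 1 was higher (background 4.02%), with a median of -0.16. Without libraries 1 and 2, 1 was lower and 1 higher, with -0.09. None of these counts is independent of the members, since the cells and libraries are the same. The list was also chosen with earlier results of these data known. Of 6 measured lymphatic genes, Flt4, the VEGF-C receptor, alone was lower at 1 wk, at -0.39.

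Podocytes, which face the glomerular endothelium, had no shared difference. Of 14 podocyte genes 1 was lower (background 3.72%) and 1 was higher (background 2.33%) at 1 wk with an unadjusted p under 0.05, with a median of -0.04. Their summed level was 449 to 509 CPM at 1 wk and 458 to 541 CPM in sedentary libraries. Nphs1, which encodes nephrin of the slit diaphragm, had a log2 fold change of 0.09 at 1 wk. Relative to the podocyte genes of the same library, the members stood at -0.23, -0.40, -0.05 and -0.51 at 1 wk, against -0.05, -0.14, 0.16 and 0.03 in sedentary libraries, so 3 of 4 libraries were below the sedentary range. At 24 h the values were -0.21, 0.12, -0.17 and -0.11, so libraries 1 and 3 were also below the sedentary range. At 2 wk they were -0.47, -0.53, -0.04 and 0.16.

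Some genes of other lists were lower at 1 wk beside the members, by an unadjusted p under 0.05. Of 10 fibroblast genes 1 was lower, Pdgfra at -0.44, with 8 negative and a median of -0.07. Of 4 vasa recta genes 1 was lower, Fbln5 at -0.63. Of 11 measured macrophage genes 3 were lower at 1 wk (background 3.72%): Mrc1 at -0.68, C1qc at -0.44 and Cd68 at -0.40. All 11 were negative, where 48.9% of all genes were, and the median was -0.36. At 2 wk 2 were lower (background 3.24%), C1qb at -0.47 and C1qc at -0.40. There 10 of the 11 were negative, where 47.9% of all genes were, with a median of -0.28. Without 2 wk libraries 1 and 2, 0 were lower, with a median of -0.35. The summed macrophage level was 138 to 167 CPM at 1 wk and 164 to 191 CPM in sedentary libraries, and Adgre1, which encodes the macrophage antigen F4/80, had -0.33 (unadjusted p = 0.23). Of 12 genes of smooth muscle, pericytes and mesangium 3 were lower at 1 wk (background 3.72%): Itga8 at -0.43, Pdgfrb at -0.36 and Mcam at -0.31. Gata3 alone was higher, at 0.33 (background 2.33%). The median of the 12 was -0.15, with a summed level of 145 to 192 CPM against 162 to 190 CPM. Proximal tubule genes had 0 of 10 past an unadjusted p of 0.05 against sedentary libraries at any duration. At 2 wk 5 of 6 red cell genes were higher (background 4.02%), with a median of 1.25 (1.51 without libraries 1 and 2, again 5 of 6). Their summed level was 718 to 1670 CPM against 374 to 632 CPM. No gene found of these lists was at 0 in every library, and the part of these cell types in the member differences was not tested.

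**Figure D4:**
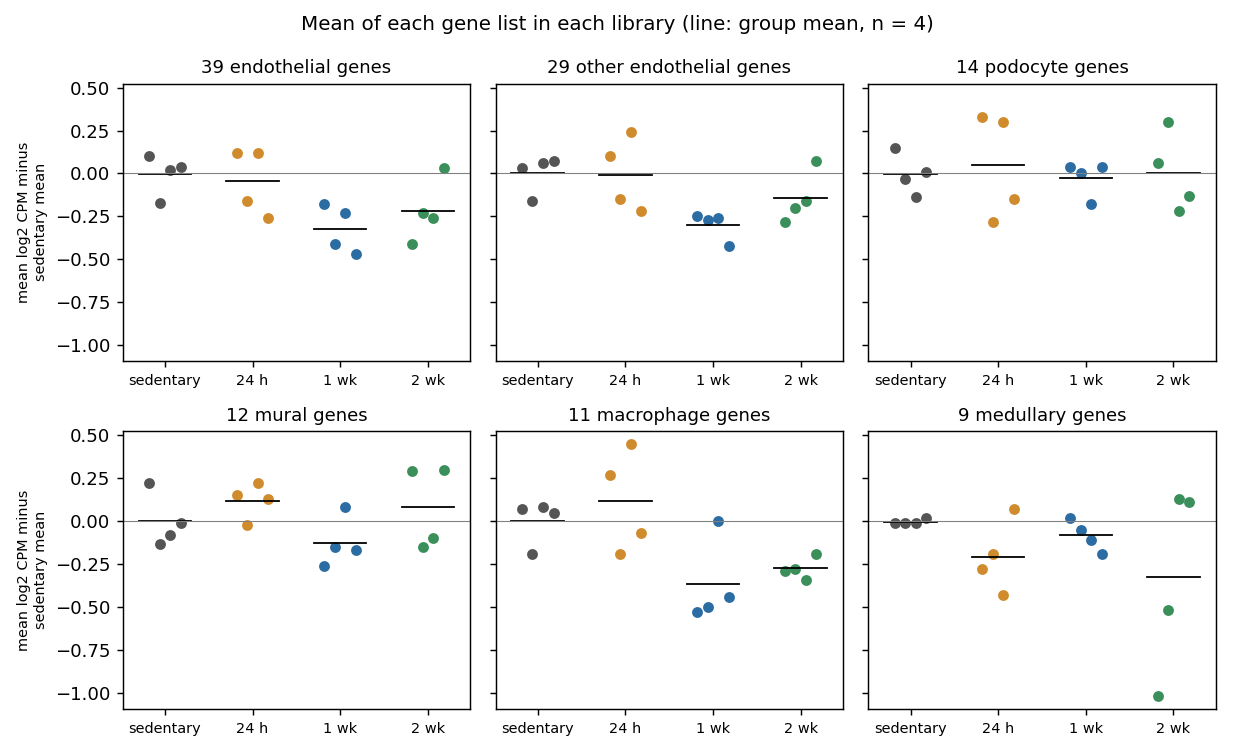
Each panel gives the mean log2 CPM of a gene list in each library, minus the sedentary mean, with a line at the group mean over 4 libraries. The 39 endothelial genes at 1 wk lie between -0.47 and -0.18 and the podocyte genes between -0.18 and 0.04. The genes of the medullary list reach -1.02 in library 1 of the 2 wk group, where their mean without Slc14a2 was -0.37.

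Of 28 listed ligands and partners of the endothelial pathways, 4 were lower at 1 wk with an unadjusted p under 0.05 (background 3.72%). By the same measure 1 was higher (background 2.33%). Their log2 fold changes ran from -0.74 to 0.75, with 19 negative and a median of -0.15. Vegfa, the ligand of Kdr, had log2 fold changes of 0.05, 0.07 and 0.05 at 24 h, 1 wk and 2 wk, each with an SE of 0.10, while Kdr was lower at 1 wk. The 4 lower genes were Nrp2, a VEGF co-receptor, at -0.66 (unadjusted p = 0.000615, adjusted p = 0.418 in edgeR), Hey1, a Notch target, at -0.74, Ackr3, a receptor that removes the chemokine CXCL12, at -0.46, and Epas1, the hypoxia-inducible factor HIF-2 alpha, at -0.32. Nrp2 had 8.76, 5.58, 7.05 and 6.97 CPM at 1 wk and 12.1, 10.6, 10.4 and 11.5 CPM in sedentary libraries, with no overlap.

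At 24 h Adm, which encodes adrenomedullin, the ligand of Calcrl with Ramp2, had 8.07, 5.38, 9.6 and 5.96 CPM against 4.25, 5.58, 3.9 and 4.42 CPM in sedentary libraries. Library 2 at 24 h overlapped the sedentary range, and the log2 fold change was 0.68 with an SE of 0.17 (unadjusted p = 0.000637, adjusted p = 0.192 in edgeR). Lpl, the lipase that Gpihbp1 carries, had 0.37 and Vegfc, a ligand of Flt4, had -0.37 at 24 h. At 2 wk Angpt2, a ligand of Tek, had -0.87 (unadjusted p = 0.00295), with 2.81 and 3.68 CPM in libraries 1 and 2, which were lowest in Slc14a2, and 9.82 and 6.08 CPM in libraries 3 and 4, against 9.81, 10.2, 9.83 and 11 CPM in sedentary libraries. Without those 2 libraries Angpt2 had -0.35 (unadjusted p = 0.0756).

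The members differed widely in level. Per kilobase of exon in sedentary libraries, Plvap had 87.6 ± 6.71 CPM/kb (SD, n = 4), Igfbp3 81.8 ± 7.37, Igfbp5 46.9 ± 5.93 and Eng 25.8 ± 1.76 CPM/kb. Emcn followed at 9.98 ± 0.85 CPM/kb, and the list ended with Gja5 at 0.549 ± 0.0515, Sox7 at 0.548 ± 0.0217 and Vwf at 0.0879 ± 0.0152 CPM/kb. Plvap and Igfbp3 overlapped, as did 33 of the 38 pairs of neighbours in this order, and Igfbp5 and Eng each stood clear of both neighbours. The fenestral diaphragm gene Plvap thus stood at the top of the order, and the arterial gene Gja5 and Vwf near its end. Whether all Igfbp3 and Igfbp5 transcripts came from endothelium was not tested.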

How the data were processed

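Whole-number counts by gene, not normalized, were deposited in a table of 24 columns. FastQC 0.10.1, HTSeq 0.10.0 and the build GRCm38, also called mm10, are named in the submitters' processing notes. The library kit marks strand, per the labels' protocols. The sources used here do not give the aligner, the annotation or the strand option. The 16 columns whose names match samples were used, and the other 8 were left out of every step. GENCODE M21 gave symbols for 52081 IDs (94%), which hold 99.4% of counts, and gave positions and exon lengths.

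Genes passed filterByExpr by group, libraries were scaled by TMM, and all 16 libraries entered a single fit with edgeR 4.0.16 (R 4.3.3), using the robust quasi-likelihood F-test, two-sided, on 6 contrasts and on all 4 groups. P-values were adjusted by Benjamini-Hochberg over 16126 genes, and SEs came from the fit. Intervals are nominally 95%, taken from the SE with a normal quantile, and cover the fitted spread. They can be narrower than the F-test implies. Robo4 at 2 wk against sedentary libraries had -0.63 to -0.01, with an unadjusted p of 0.0584 in that test. Alternatives used other scalings and filters, DESeq2 1.42.0, voom with quality weights in limma 3.58.1, a replicate block, only the groups compared, and libraries left out in turn. The fit was tested on simulated data. No 2 libraries of a group were copies: over 24 pairs the chi-square per degree of freedom was at least 7.88. Total counts ran from 39766260 to 66852397 per library, so low counts limit mainly Sox7 and Vwf.

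The members and lists were chosen with earlier results of these data known. A member is given with its log2 fold change and p where its unadjusted p is under 0.05. CPM of every library are given for the 12 members of smallest p in the comparison with the most such members and always for Kdr, Flt1, Emcn, Ehd3, Pecam1, Cdh5, Plvap, Cldn5, Gja5 and Vwf. Up to 4 genes of each other list are named by the same rule, and always Vegfa, Nphs1 and Adgre1; 1 further gene of that rule is not reported here. Slc14a2, and the Apln, Gja4, Esam, Egfl7 and Cd34 values by library, and the values of members without such a p, were added after they were seen. Of the red cell list, Ahsp had no matching ID. Platelet genes (4 measured) had 0, 0 and 2 higher at 24 h, 1 wk and 2 wk, 10 fibroblast genes 4, 0 and 0 higher and 0, 1 and 0 lower, 9 genes of the medullary list 1, 0 and 0 lower, and 4 vasa recta genes 0, 1 and 1 lower, all by unadjusted p under 0.05 against sedentary libraries. Over all genes, 4.43%, 3.72% and 3.24% were lower and 4.49%, 2.33% and 4.02% were higher at those durations.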

Additional observations from a re-analysis of the deposited data

Results flagged for a closer look

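In 72 groups of 4 libraries checked for a value far from the others, which chance flags in about 1 of 20 groups, 2 values stood out. Plvap had 194 CPM in sedentary library 1, against 166 to 169 CPM in the other 3 sedentary libraries. Sox18 had 14.7 CPM in library 3 of the 24 h group, against 11 to 11.2 CPM in the other 3.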

How the results depend on the processing

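No member with an unadjusted p under 0.05 in a comparison changed sign there in any alternative run: 903 such values under alternatives kept an unadjusted p under 0.05 and 206 did not. Counts moved as follows. DESeq2 put members past an adjusted p of 0.05: 1 at 1 wk and 2 at 2 wk against sedentary, 2 between 1 wk and 24 h and 4 over all groups, where edgeR put 0; over all genes DESeq2 called 15, 34, 59 and 163. At 24 h the number lower was 2 with no filter, 3 with only the 2 groups compared, 2 with the replicate block and 4 with voom, and at 1 wk voom put 1 higher. From 1 wk to 2 wk the number higher was 2 with DESeq2, its size factors in edgeR, a 1 CPM filter or upper-quartile scaling, 1 with only the 2 groups and 8 with voom. For 2 wk against 24 h, the number higher was 0 with total counts, and the number lower 3 with voom. Over all 16126 genes, in either direction, voom put 2322 under an unadjusted p of 0.05 from 1 wk to 2 wk. DESeq2 put 790 there and edgeR 738. Against sedentary libraries voom put 2244 at 24 h and 2365 at 1 wk, where edgeR put 1439 and 975. Shares over all genes are not given for the other scalings and filters or for libraries left out. Leaving out 2 wk libraries 1 and 2, chosen after seeing the data, gave 4 lower against sedentary, and 3 lower and 0 higher against 24 h.

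Leaving out 1 library gave these ranges. At 24 h: lower 1 to 2 (2 without library 1 or 3 of that group), higher 0 to 1 (0 without sedentary library 2 or 4), and the median over members, -0.109 to 0.03, took both signs. At 1 wk: lower 13 to 24, higher 0 to 1. At 2 wk: lower 5 to 16, median -0.332 to -0.11. Between 1 wk and 24 h: lower 8 to 21. From 1 wk to 2 wk: higher 1 to 8, lower 0 to 1. Between 2 wk and 24 h: lower 2 to 14, higher 0 to 1. Over all groups: 7 to 20. The cause was not tested.

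Same-numbered libraries did not all deviate together (r from -0.239 to 0.375 over 24 pairs, 8 over 0.1, mostly among libraries numbered 3; 5 of 16 libraries correlated best with their own number). With the replicate block 25 members were lower at 1 wk, 24 of them shared with the fit without it, and 9 at 2 wk, 8 of them shared. Scalings moved the median of all genes to between -0.028 and 0.028. Separate animals, cell numbers and the meaning of the title letters are not known, and adjusted p-values were above 0.05 for all members in edgeR.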
